A study of Mus musculus with 2 samples.

Results

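Complement is a system of plasma and tissue proteins that marks cells and debris for removal. It is started by the C1 complex (C1q with the proteases C1r and C1s, the classical pathway), by lectins, or by slow turnover of C3 with factor B (the alternative pathway), and all 3 routes meet at the cleavage of C3. Regulators such as C1 inhibitor and CD59 hold it in check on host cells. Chondrocytes are known to make several complement proteins, and complement activity has been described in osteoarthritic joints. A set of 9 genes was followed here: C1qa, C1qb, C1qc and C1ra of the C1 complex, C4b, C3, Cfb and the regulators Serping1 and Cd59a. The genes were taken by name, and every non-control probe whose listed transcript accession belongs to one of them in RefSeq was used. All 9 had a probe, out of 20656 genes named on the arrays, and together they had 12 probes in 30 spots. The listed transcripts are NM_007572 (C1qa), NM_009777 (C1qb), NM_007574 (C1qc), NM_023143 (C1ra), NM_009780 (C4b), NM_009778 (C3), NM_008198 (Cfb), NM_009776 (Serping1) and NM_007652 (Cd59a).

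RNA came from primary chondrocytes of 6-day-old C57BL/6J mice and is labelled by strain and age only. Neither the number of animals nor any pooling is given. The cells, freed from articular cartilage with collagenase, had been seeded in fibronectin-coated silicon chambers for 48 h. One array held RNA taken before loading and 1 array RNA taken 24 h later than a 30 min bout of cyclic stretching, in which the chambers were lengthened by 10% at 0.5 Hz. An unloaded culture at 24 h was not analysed here, so the effect of strain cannot be told apart from that of a further day in the chamber. Since each time point is a single array, replicate error is unknown, and neither tests nor p-values are given. The number of arrays limits the precision.

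Values are background-subtracted spot intensities, divided by the 75th percentile of their own array (466.4 before and 466.2 at 24 h) and put on a log2 scale. A log2 ratio above 0 means a higher value after loading. Its error combines the scanner software's error of both spots and covers within-array error only. Where a gene has several probes the brightest stands for it, and the gene counts as detected when that probe was well above background on both arrays, as 14227 genes were. Their log2 ratios had a median of -0.01 and an SD of 0.38, and 47.6% of them were above 0. Their within-array errors had a median of 0.204, and the error was not reduced for probes with several spots. Between spots of a probe the log2 ratio had a median SD of 0.087, over 268 detected probes with at least 8 spots. Col2a1, the major cartilage collagen, was measured at 499543 and 474876, and all 11 chondrocyte markers listed were detected.

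All 9 complement genes were detected on both arrays, and 0 of them changed more than 2-fold. Among all detected genes 0.668% were higher by over 2-fold and 1.83% were lower by as much. Of those past 2-fold, 26.8% were higher, or 38.8% when arrays were scaled by their medians, which raised every log2 ratio by 0.10. The log2 ratio was above 0 for 6 of the 9 genes (C4b, C3, Cfb, C1ra, Serping1 and Cd59a) and below 0 for the 3 C1q chains. The share above 0 among all detected genes was 47.6%. C1qb turned sign with median scaling and with normexp background correction, and Serping1 when its probes were averaged. All values given with normexp correction were also quantile-normalized between the arrays. The 9 log2 ratios ran from -0.42 to 0.80 with a median of 0.25. By the brightest probe of each gene, Cd59a and Cfb were higher by more than 2 within-array errors, as were 7.24% of all detected genes. That count of 2 became 4 with C1ra and C4b under median or spike-in scaling, when 11.5% and 10.8% of all detected genes passed. It was 3 with C1ra under probe averaging (6.89% of all), and under normexp correction 1, Cd59a (5.26% of all). None of the 9 was lower by that much, against 9.12% of all detected genes. This second limit was chosen after the values were seen.

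**Figure D1:**
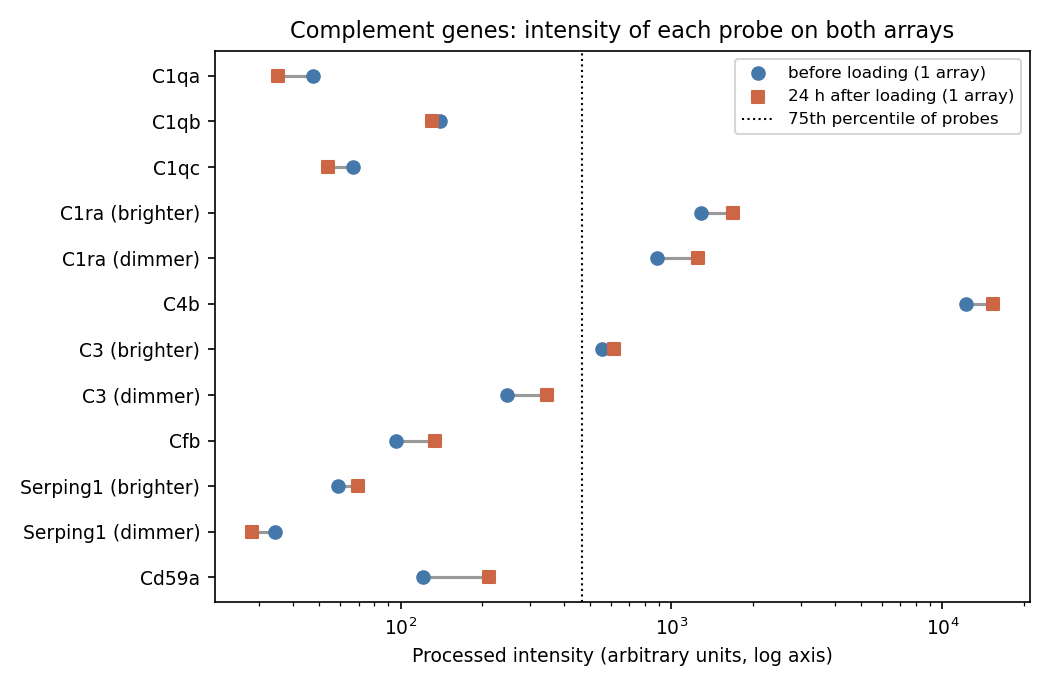
Processed intensity (arbitrary units, log axis) of each of the 12 probes before loading (circles) and 24 h after (squares), 1 array each; the dotted line is the 75th percentile of all probes before loading. The C1q probes shifted to the left and the others to the right, except the dimmer probe of Serping1.

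RefSeq promoter windows (GRCm38.p6) were held for 5 of the 9 genes. The 250 bases before the start are shown for all 5. By the sign of the log2 ratio, C3, C1ra and Cd59a were higher at 24 h, and C1qb and C1qc lower. The ratios of C3 (0.15, error 0.20) and C1qb (-0.10, error 0.22) were smaller than their errors. C1qb also turned sign under other settings. C3 lies at chr17:57228137-57228386 on the minus strand, C1ra at chr6:124512371-124512620 on the plus strand and Cd59a at chr2:104095551-104095800 on the plus strand. C1qb lies at chr4:136886201-136886450 and C1qc at chr4:136892915-136893164, both on the minus strand. Each is written 5′ to 3′, and capitals mark matches to 5 motifs on either strand.
C3: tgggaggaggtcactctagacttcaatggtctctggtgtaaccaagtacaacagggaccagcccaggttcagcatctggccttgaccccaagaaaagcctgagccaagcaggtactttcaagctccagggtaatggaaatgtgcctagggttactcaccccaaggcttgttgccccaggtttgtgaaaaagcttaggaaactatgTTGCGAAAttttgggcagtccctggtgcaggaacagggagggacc
C1ra: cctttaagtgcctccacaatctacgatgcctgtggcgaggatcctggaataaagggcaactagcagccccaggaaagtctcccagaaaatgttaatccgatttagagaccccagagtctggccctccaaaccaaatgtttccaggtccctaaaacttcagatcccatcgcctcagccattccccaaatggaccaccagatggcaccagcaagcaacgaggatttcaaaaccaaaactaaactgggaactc
Cd59a: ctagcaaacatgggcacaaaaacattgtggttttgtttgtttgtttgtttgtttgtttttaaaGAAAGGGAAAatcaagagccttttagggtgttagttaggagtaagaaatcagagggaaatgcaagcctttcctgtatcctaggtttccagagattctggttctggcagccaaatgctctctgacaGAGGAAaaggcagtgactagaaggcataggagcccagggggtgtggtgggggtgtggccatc
C1qb: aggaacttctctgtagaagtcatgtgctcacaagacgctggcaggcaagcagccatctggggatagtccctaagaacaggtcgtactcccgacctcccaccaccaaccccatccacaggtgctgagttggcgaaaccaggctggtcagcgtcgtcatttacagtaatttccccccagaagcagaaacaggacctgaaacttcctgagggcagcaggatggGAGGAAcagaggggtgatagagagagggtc
C1qc: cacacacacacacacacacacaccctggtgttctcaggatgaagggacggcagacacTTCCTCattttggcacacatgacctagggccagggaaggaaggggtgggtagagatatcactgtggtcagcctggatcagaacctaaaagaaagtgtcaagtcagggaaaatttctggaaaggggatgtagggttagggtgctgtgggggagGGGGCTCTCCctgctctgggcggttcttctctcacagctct

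The motifs were those of C/EBP (TTGCNNAA), IRF (GAAA repeated after a gap of any 2 bases), STAT (TTCNNNGAA) and PU.1 (GAGGAA), and the longer NF-κB consensus. They were chosen by hand, with members known, as binding motifs of factors known to act on complement genes. C3 held a C/EBP match that begins 45 bases before the start, as 9.56% of 32851 windows of this length hold one. Cd59a held an IRF match at 187 bases and a PU.1 match at 62 bases. C1qb held a PU.1 match at 30 bases. C1qc held a PU.1 match at 193 bases and an NF-κB match at 41 bases. PU.1 matches were present in 23.3% of all windows, IRF matches in 2.98% and NF-κB matches in 3.90%. None of the 5 windows held the STAT motif, which 7.02% of all windows hold, and C1ra held no match to any of the 5 motifs. No match overlapped another. A match is a description of the letters and not a measured binding site.

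The recognition protein of the classical pathway, C1q, is built from 3 chains encoded by C1qa, C1qb and C1qc, which lie next to one another on 1 chromosome. All 3 were dim and measured lower at 24 h. C1qa went from an intensity of 47.5 to 35.4, giving a log2 ratio of -0.42 (error 0.28). C1qb went from 140.2 to 131.1, a log2 ratio of -0.10, which is less than its error of 0.22. C1qc is printed 10 times on each array. Its spots had intensities of 57.3 to 75.9 before (median 69.0) and 44.3 to 61.5 at 24 h (median 55.2), so the ranges overlap. The log2 ratio of C1qc over the 10 spots was -0.31 ± 0.15 (SD), and 0 of the 10 spots were higher at 24 h. These spots read the same labelled RNA and are technical repeats. Among detected genes of similar mean intensity, defined as within 0.5 on the log2 scale, the ratio of C1qa was above that of 23.1%, that of C1qb above 43.0% and that of C1qc above 26.7%. With normexp correction C1qa had -0.14, C1qb 0.01 and C1qc -0.07.

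C1q is classically made by macrophages, so macrophage markers were read beside it. Of 15 listed, 14 had a probe and 11 were detected on both arrays, 7 of them higher and 4 lower, with a median log2 ratio of 0.21. Their summed intensity was 5965 before and 6249 at 24 h. The brightest probe of Csf1r makes up most of that sum (3646 and 3288), and the 2 other probes of Csf1r read 845 and 967, and 33 and 40. Adgre1, the gene of F4/80, was measured at 55.6 and 59.0. Ptprc, the gene of CD45, was at 20.9 and 46.1, a log2 ratio of 1.14 (error 0.35) that came to 0.44 with normexp correction. Cd68 had no matched probe, and neither array showed Aif1 or Cx3cr1 well above background. By more than 2 within-array errors, 3 markers were higher (Ptprc, Ctss at 0.63 and Lyz2 at 0.46) and 1 was lower (Laptm5 at -0.42). Among all detected genes 7.24% were higher and 9.12% lower by that much. Ctss, Lyz2 and Laptm5 were named after their values were seen. Thus the C1q probes and the macrophage list did not move in one direction, and the part of macrophages in the C1q values was not tested. In RNA from a whole culture, fewer cells of a type and less RNA per cell cannot be told apart.

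C1ra encodes C1r, the protease that C1q sets off and that in turn activates C1s. Its brighter probe went from 1287 to 1691, a log2 ratio of 0.39 (error 0.20). The second probe went from 882 to 1256, a log2 ratio of 0.51 (error 0.20). Both probes of C1ra were thus higher at 24 h, by 1.31-fold and 1.42-fold. C1rb, a close copy of C1ra in the mouse, had a log2 ratio of 0.47 (118.8 to 164.5, error 0.22). C1rb was named after its value was seen. The files hold no probe sequences, so how far these probes tell the copies apart was not checked.

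C4b encodes complement C4, which activated C1s cleaves to form the C3 convertase of the classical and lectin pathways. Its intensity was 12190 before and 15339 at 24 h, a log2 ratio of 0.33 (error 0.20). This ratio was above that of 88.6% of all detected genes and of 94.3% of the 723 of similar intensity. C4a, a neighbouring copy of C4b, had no matched probe, and reading of its RNA by the C4b probe was not checked.

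C3, the protein on which all routes meet, had 2 probes that differed in size of change. The brighter probe went from 555 to 615, a log2 ratio of 0.15, which is less than its error of 0.20. The dimmer probe is printed 10 times, with intensities of 231 to 269 before (median 250.1) and 321 to 367 at 24 h (median 345.6). The 2 ranges did not overlap. The log2 ratio of the dimmer probe was 0.49 ± 0.09 (SD over 10 spots), or 1.40-fold, with a within-array error of 0.21. All 10 spots of this probe were higher at 24 h. The difference between the probes of C3, 0.34, compares with a median range of 0.19 between the detected probes of 3633 genes that have more than 1. With the mean over both probes C3 had a log2 ratio of 0.32.

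Cfb encodes factor B, which pairs with C3b to form the convertase of the alternative pathway. Its single probe went from 96.4 to 134.6, a log2 ratio of 0.48 with an error of 0.22. The ratio was above that of 94.3% of all detected genes, and of 90.7% of those of similar intensity. With normexp correction Cfb had 0.30. C2, the neighbouring gene, which encodes the counterpart of factor B in the classical pathway, was measured at 97.9 and 99.8, a log2 ratio of 0.03 (error 0.22). C2 was likewise named after its value was seen.

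**Figure D2:**
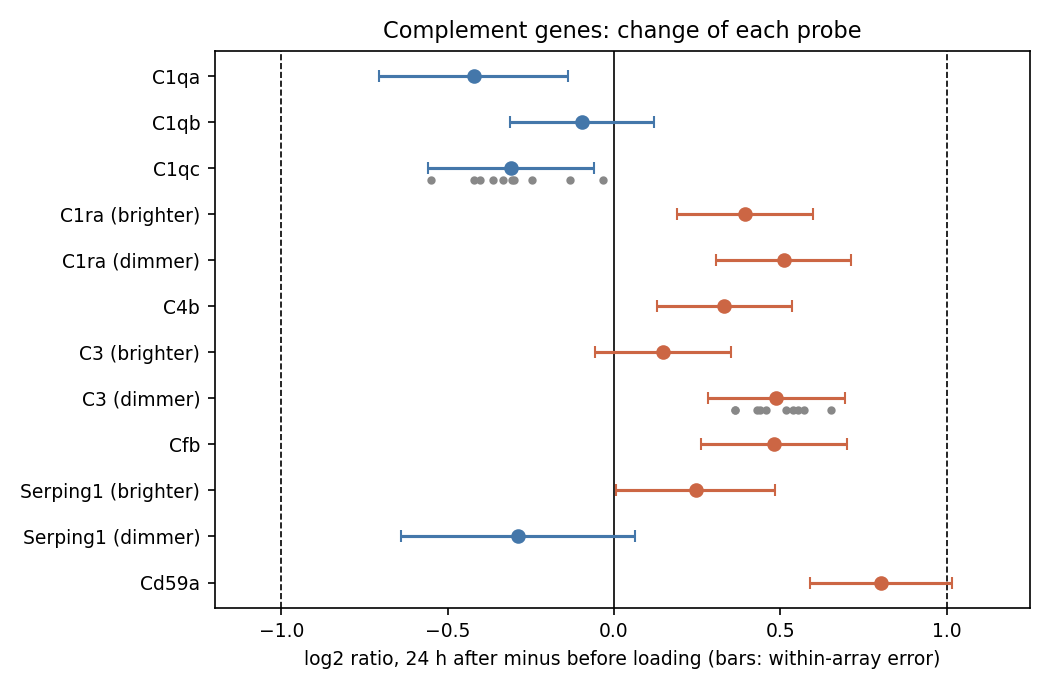
Log2 ratio (24 h after minus before loading) of each of the 12 probes, with bars of 1 within-array error and small grey points for the single spots of probes printed 10 times. Dashed lines mark 2-fold, and no probe lies beyond them, the farthest being Cd59a at 0.80.

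Of the 2 regulators, Serping1 encodes C1 inhibitor, which inactivates C1r and C1s. Its brighter probe went from 58.9 to 69.8, a log2 ratio of 0.25 with an error of 0.24. The dimmer probe went from 34.5 to 28.3, a log2 ratio of -0.29 with an error of 0.35. The probes of Serping1 had opposite signs, and their mean was -0.02, so that no direction is given for this gene.

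Cd59a encodes CD59, a membrane-anchored protein that blocks the assembly of the membrane attack complex. It had the highest log2 ratio of the 9 genes. The intensity of Cd59a went from 121.6 to 212.0, a log2 ratio of 0.80 (error 0.21) or 1.75-fold. It was above that of 98.6% of all detected genes, and of 97.7% of the 1374 of similar intensity. The ratio was 0.56 with normexp correction and between 0.80 and 0.90 under the other settings run for it. Cd59b, the adjacent copy of the gene, had a log2 ratio of 0.87 (32.8 to 59.7, error 0.29), and 0.36 with normexp correction. Cd59b was named after its value was seen. Which copy each probe reads was not checked.

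**Figure D3:**
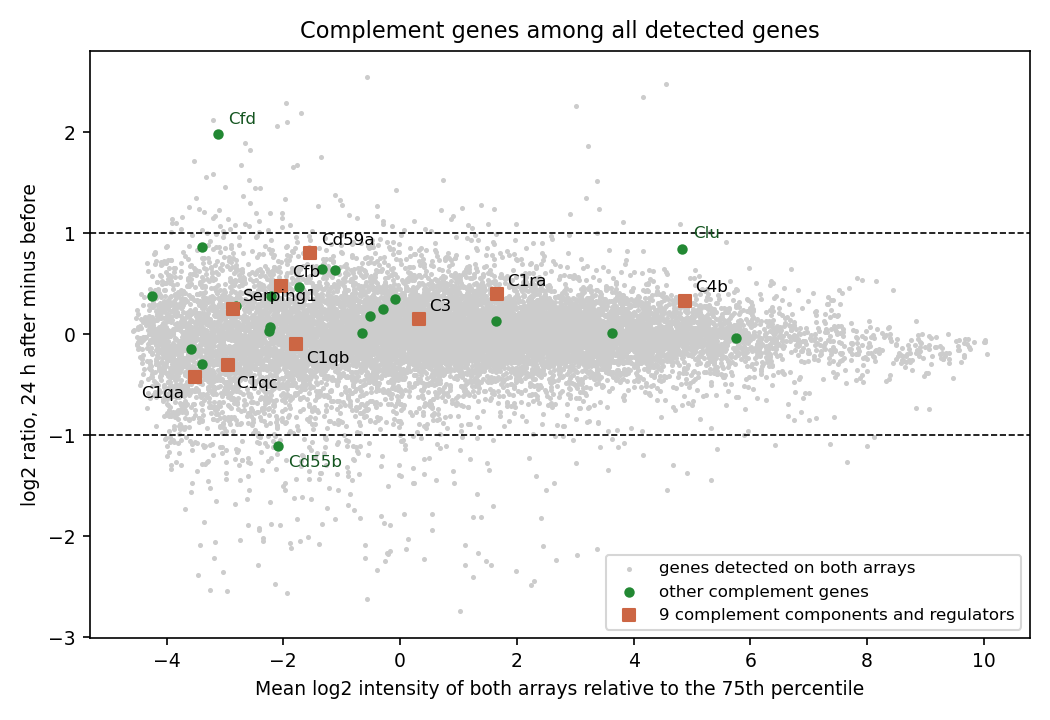
Log2 ratio against mean log2 intensity of both arrays relative to the 75th percentile, for 14227 detected genes (grey), the 9 complement genes (squares) and 21 other detected complement genes (dark circles). The 9 genes lie inside the 2-fold lines (dashed), and Cfd at 1.98 and Cd55b at -1.10 lie outside them.

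The rest of the pathway was taken from a list of 44 further complement genes in 6 roles. Of these, 43 had a probe and 21 were detected on both arrays, 17 with a log2 ratio above 0 and 4 below, with a median of 0.25, where 47.6% of all detected genes were above 0. Cfd was the 1 gene more than 2-fold higher and Cd55b the 1 more than 2-fold lower. Higher by more than 2 within-array errors were 6 genes, and lower 1, beside 7.24% and 9.12% of all detected genes. For 17 of them the brightest probe was well above background on neither array. One of these, Masp2, had a further probe that was so before loading, at 20.9, and not at 24 h, at 3.93.

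In the classical and lectin pathway 6 of 13 genes with a probe were detected, all 6 with ratios from 0.03 to 0.47. C1rl, a C1r-like protease, had 0.13 (1400 to 1527) and C1s2, a copy of the C1s gene, had 0.35 (388 to 494). The lectins Mbl1 and Mbl2 and the lectin-associated proteases Masp1 and Masp2 were not detected by their brightest probes on either array. In the same role Fcna was detected, with 0.38 (21.6 to 28.1, error 0.42). Colec11 was well above background before loading only, and Fcnb and Colec10 on neither array. Fcna, Fcnb, Colec10 and Colec11 were named after their values were seen. In the terminal pathway, which forms the lytic pore, 3 of 7 genes were detected, within ratios of -0.14 to 0.28. C8g had 0.01 (296.0 to 298.0) and Hc, the gene of C5, had 0.28 (60.2 to 72.9). C8a, C8b and C9 did not reach that level on either array, and C6 was so before loading only.

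Among soluble regulators Clu was the 1 detected of 7. It encodes clusterin, a chaperone that also binds the terminal complex, and went from 9945 to 17867, a log2 ratio of 0.85 (error 0.20) or 1.80-fold. This was above that of 99.5% of detected genes of similar intensity, and Clu ranged from 0.85 to 0.94 over the settings run. Cfi, C4bp and Vtn, further plasma regulators, were not well above background.

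Of 6 membrane regulators 5 were detected, 3 of them higher by more than 2 within-array errors, as were 7.24% of all detected genes. Susd4 had 0.63 (172.2 to 266.6). Cd55, the gene of decay-accelerating factor, had 0.64 (147.1 to 229.7), and it was named after its value was seen. Cr1l, the gene of the rodent regulator Crry, had 0.01 (5751 to 5778). Cd55b, a copy of Cd55, had -1.10 (160.2 to 74.5, error 0.22) on its brighter probe but 0.29 (25 to 30, error 0.42) on the other, and its brighter probe had -0.57 with normexp correction. Cd46, also a membrane regulator, was at 21.8 and 7.5, well above background before loading only. Of 8 receptors 4 were detected and none of these 4 passed 2-fold. Itgax was at 22.4 and 45.0 (2.01-fold), well above background at 24 h only. C3ar1 was at 23.3 and 14.4, well above background before loading only. Cd46, Itgax and C3ar1 were named after their values were seen. C5ar2 had 0.38 (88.3 to 114.5). Itgam, a subunit of complement receptor 3, had -0.04 (25496 to 24759) on its brightest probe, while its other probes read 70 and 55, and 49 and 44.

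**Figure D4:**
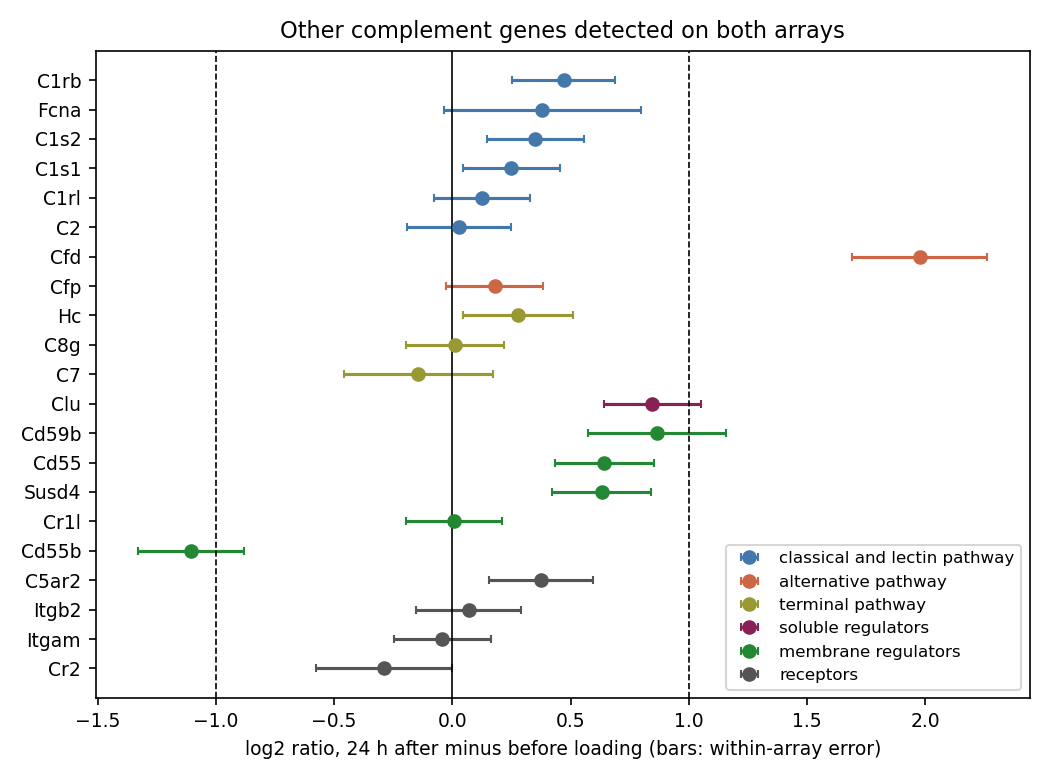
Log2 ratio (24 h after minus before loading) of the 21 other complement genes detected on both arrays, coloured by role, with bars of 1 within-array error and dashed lines at 2-fold. Cfd at 1.98 stands to the right of 2-fold and Cd55b at -1.10 to the left, and Clu, Cd59b, Cd55 and Susd4 lie between 0.63 and 0.87.

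In the alternative pathway Cfp, the gene of properdin, had 0.18 (305.6 to 345.8). Cfd encodes factor D, also known as adipsin, which cleaves factor B and is made in large amounts by fat cells. Cfd went from 26.9 to 106.0, a log2 ratio of 1.98 (error 0.29) or 3.94-fold, and the ratio was 1.01 with normexp correction. Adipocyte markers were read beside it. Of 6 listed, 5 were detected, 4 of them higher and 1 lower, with a median log2 ratio of 0.95 and a summed intensity of 2479 before and 3717 at 24 h. Adipoq, the gene of adiponectin, had 2.29 (54.2 to 265.3), Plin1 1.01 (61.7 to 124.2) and Fabp4 0.95 (746 to 1440), while Pparg had -0.27 and Cidec was not well above background. With normexp correction Adipoq had 1.31 and Plin1 0.65. Thus Cfd and most adipocyte markers were higher together, and their part in the Cfd value was not tested.

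Fibroblast and endothelial markers were read in the same way. All 8 fibroblast markers were detected, with a median of 0.12 and summed intensities of 165888 and 170346. Dpt, a matrix protein gene, was the 1 of them past 2-fold, with 2.10 (59.2 to 253.0, or 1.37 with normexp correction), and Col1a2 had 0.01 (85821 to 86576). Of 5 endothelial markers 2 were detected, with sums of 12884 and 12505. Most of that sum is the brighter probe of Kdr (12774 to 12375). The other probe of Kdr, printed 9 times, read 5.05 and 5.63, not well above background on either array. Neither array detected Cdh5, Tek or Emcn. The chondrocyte markers had a median of 0.08 and ran from -0.82 for Col11a1 (107657 to 60799, error 0.20) to 0.56 for Matn1 (87822 to 129093, error 0.20), both named after their values were seen. None of the 30 spots of the 9 genes had 3 or more neighbours within 100 µm that had changed more than 2-fold in one direction.

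**Figure D5:**
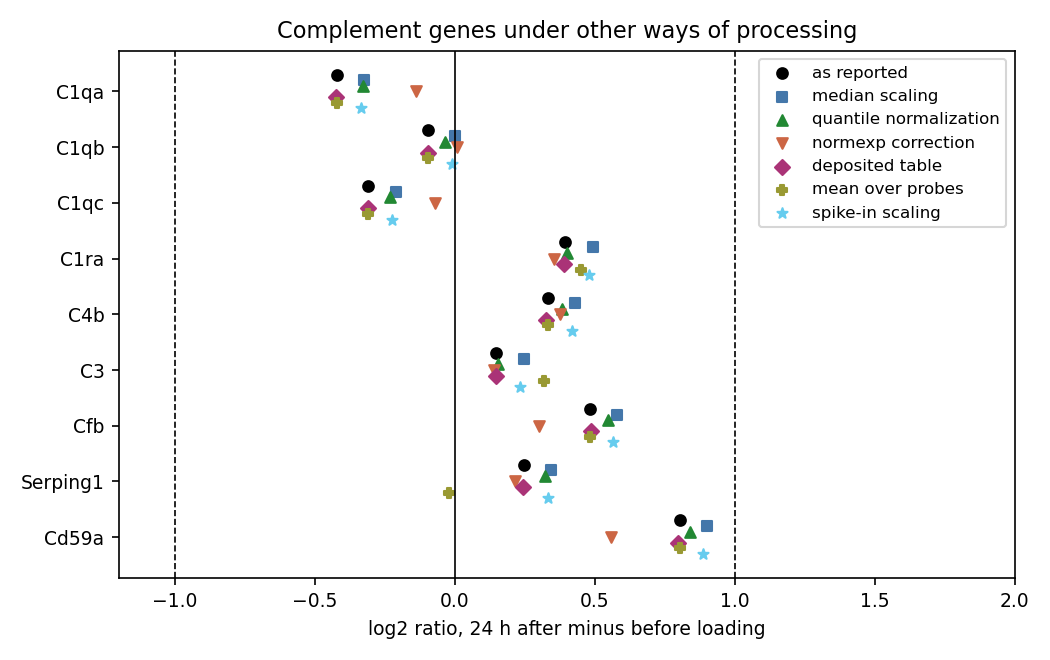
Log2 ratio (24 h after minus before loading) of the 9 genes as reported (black) and under 6 other ways of processing, with dashed lines at 2-fold. C1ra, C4b, C3, Cfb and Cd59a stayed above 0 and C1qa and C1qc below 0 in all 7, C1qb lay at or near 0 with median scaling and normexp correction, and the mean over probes moved Serping1 to -0.02.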

How the data were processed

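RNA was hybridised to 2 one-colour (Cy3) SurePrint G3 Mouse Gene Expression arrays, 1 per time point. Spot intensity was deposited by the authors after processing in Agilent Feature Extraction 10.10.1.1, background-subtracted with spatial detrending and not normalized between arrays. A further deposited table holds the same intensities, within 0.497%. Of 59305 spots, outlier spots of either array were dropped (141 before, 138 at 24 h), and spots of a probe were averaged as log2 values (55678 probes). Each array was scaled to its 75th percentile. Probes were named by accession, without version, through a RefSeq table of GRCm38.p6 used for names only (27229 probes). A multi-spot probe counted as well above background when most of its spots were.

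The members and all lists were chosen with earlier results of these data known, and support nothing by their choice. Named are all members, complement genes past 2-fold and the 2 brightest detected in each role, the brightest and any changed cell type markers, and Adgre1, Csf1r, Cd68 and Ptprc. The counting of 2-fold calls was tested on simulated data that held within-array error only and changes well past 2-fold. That test covers neither smaller changes nor error between arrays. Normexp (offset 50) was run in limma 3.58.1 (R 4.3.3) on the median spot intensity. It was followed there by quantile normalization between the arrays, in place of scaling to the 75th percentile. All else was run in Python 3.11.15. Alternatives were median, quantile and spike-in scaling, normexp, the deposited table, the mean over probes, other filters on dim probes and an error allowance.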

Additional observations from a re-analysis of the deposited data

How the results depend on the processing

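Of 54 values of the 9 genes under 6 other settings, 51 moved by less than 1 within-array error. The 3 exceptions were C1qa (-0.14) and Cd59a (0.56) under normexp correction, and averaging its probes turned Serping1 to -0.021. Many of the 51 could not have moved further. Median and spike-in scaling raise every log2 ratio by 0.098 and 0.085, less than the smallest error of the 9 genes, 0.204. The deposited table holds the same intensities within 0.497%, and averaging probes leaves genes with a single probe unchanged. The 51 are therefore no measure of how stable the values are. The count of the 9 genes past 2-fold was 0 under all settings run. Over all genes 95 were more than 2-fold higher and 260 lower. These counts were 41 and 112 with normexp correction, 492 and 983 without any filter on dim probes, 192 and 507 if detection on either array was enough, and 23 and 95 when 2-fold had to be passed by 2 within-array errors. Of the other complement genes 2 were past 2-fold. That count was 1 under normexp correction, 1 under probe averaging and 1 with the error allowance, 8 with no filter on dim probes and 5 with detection on at least 1 array. The dim-probe settings add probes and the error allowance removes them by construction. The normexp offset of 50, added to every intensity, makes the log2 ratios of dim probes smaller in size by construction. How much of the normexp differences comes from this offset was not tested, nor was the cause of the other differences. Normexp on the mean spot intensity was not run, since the files used here hold the median, which was used instead. Spike-in scaling was chosen after seeing the data. No paired analysis was possible because each group holds 1 array, so no replicate could be left out either. Signal over background limits what can be read from dim genes, with spots passing as well above background from 17.3 before and 17.8 at 24 h.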

Other observations

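Cytokines and transcription factors known to induce complement genes in other cells were also read. Il1a, Il1b, Tnf, Il6, Ifng and Ifnb1 were detected on neither array. The 6 signalling and transcription factor genes detected on both arrays were all within 2-fold. Rela, an NF-κB subunit gene, had a log2 ratio of 0.13 (13251 to 14495), Nfkb1 -0.16 (420 to 377) and Irf1 0.06 (1446 to 1511). Stat3 had -0.20 (6953 to 6030), and the C/EBP genes Cebpb and Cebpd had -0.34 (10039 to 7954) and -0.39 (7799 to 5929). The ratios of Cebpb and Cebpd were above those of 7.16% and 4.79% of detected genes of similar intensity.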
